A study of Mus musculus with 10 samples.

Results

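The Notch genes described here are 4 receptors (Notch1, Notch2, Notch3 and Notch4), 4 ligands (Jag1, Jag2, Dll1 and Dll4) and 2 target genes (Hes1 and Hey1). They were chosen by gene symbol, and all 10 were found among the 23086 genes of the deposited table. RNA was sequenced from 10 mouse tumours grown from BBN963, a urothelial carcinoma cell line. Of these, 5 tumours came from ATM-WT cells, which carry the Atm gene, and 5 from ATM-KO cells, in which it was knocked out. ATM is the kinase that signals DNA double-strand breaks. Tumours were taken when they reached a set size, and their comparison asks how gene expression differs where ATM is missing from the tumour cells. The labels give no host strain, sex or age, no number of knockout clones, nor do they tie each tumour to an animal of its own. The p-values therefore measure only the spread between these samples, which may be technical.

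Notch receptors are membrane proteins that bind Jagged or Delta-like ligands on a neighbouring cell. Binding lets ADAM proteases and then the gamma-secretase complex cut the receptor, and the freed intracellular part joins the DNA-binding protein RBPJ and a Mastermind coactivator to switch on target genes such as Hes1 and Hey1, which encode transcriptional repressors. Signalling occurs between epithelial cells, and also in blood vessels, where Dll4, Notch4 and Hey1 are known in endothelium and Notch3 in the pericytes and smooth muscle around it. In bladder cancer, loss-of-function mutations of Notch pathway genes are known.

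Atm itself stood at 433, 768, 311, 360.4 and 554 normalized counts in the ATM-WT libraries and at 659, 409.9, 366, 529.5 and 312 in the ATM-KO libraries, a log2 fold change of -0.07 ± 0.26 (limma adjusted p = 0.85). The groups overlapped fully, so the knockout is not visible in these counts per gene. The labels do not say how Atm was disrupted, and counts per gene do not show a disruption that leaves the RNA in place. The genotype of each library, and with it the direction of each change, therefore rests on its label alone.

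The libraries summed to between 20.2 and 22.3 M normalized counts. From the spacing of low values they rested on a rough 20.6 to 28.3 M reads, apart from ATM-WT library A2 with 8.82 M. A2 and A4 listed the most genes at 0, with 4824 and 4266 against 2225 to 3602 in the other libraries. The label of urothelial tumour was checked against 12 epithelial marker genes. All 12 fell in ATM-KO, and their summed level ranged from 89139.8 to 245289 in ATM-WT and from 2403 to 4102 in ATM-KO. Krt5, a keratin of basal epithelium, was listed at 0 in 3 ATM-KO libraries. Krt18, a keratin of simple epithelium, fell least of the 12 and stayed at 1259 to 2197 in ATM-KO, against 3167 to 6722 in ATM-WT (-1.36 ± 0.24), so it made up much of the ATM-KO sum.

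Dll4 rose, Jag2, Dll1 and Notch3 fell, and the targets Hes1 and Hey1 moved in opposite directions. In the limma fit across 16517 genes (adjusted p under 0.05 by the Benjamini-Hochberg method), 7 of the 10 genes were called, 2 higher and 5 lower in ATM-KO. Among all genes tested 46.4% were called, 22.1% higher and 24.3% lower. The groups were free of overlap for 6 of the 10, and for 35.2% of all genes tested. The median log2 fold change was -0.47 over the 10 and 0.00467 over all genes tested. Levels are given as the mean with its SD (n = 5 libraries in each genotype). Fold changes subtract ATM-WT from ATM-KO in log2(value + 1), with ± SE. The added 1 shrinks the change of genes with low values, while a single value of 0 can enlarge it. Hey2, described below, changed by 2.87, and by 1.91 without A4, where it was listed at 0. In bulk tumours, fewer cells of a type and less RNA per cell cannot be told apart.

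**Figure D1:**
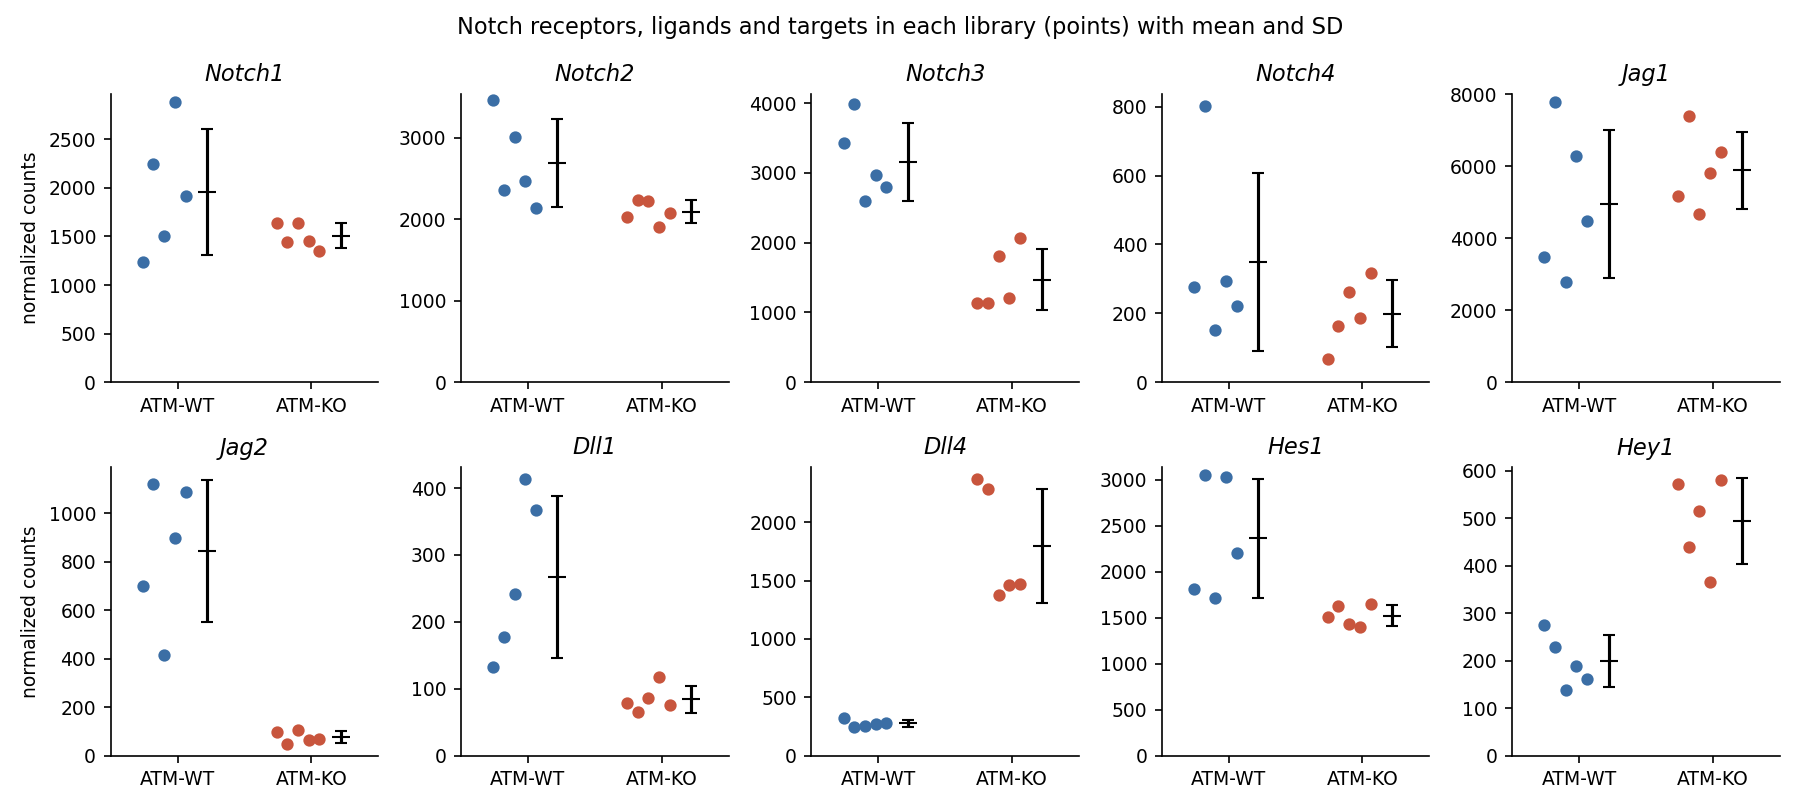
Normalized counts (y axis, linear from 0) of the 10 Notch genes in each of the 5 ATM-WT and 5 ATM-KO libraries (points), with the mean and SD beside them. The groups are apart for Notch3, Jag2, Dll1, Dll4, Hes1 and Hey1, and overlap for Notch1, Notch2, Notch4 and Jag1.

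Among the receptors, Notch3 fell and Notch2 passed the threshold narrowly. Notch3 stood at 3434, 3989.6, 2593, 2975 and 2792 normalized counts in the ATM-WT libraries A1 to A5, and at 1128, 1133, 1808, 1202 and 2067 in the ATM-KO libraries A11 to A15. Every ATM-KO library lay below every ATM-WT library, with A13 and A15 the highest of the ATM-KO tumours. Its mean of 3157 ± 559.9 went to 1467 ± 439.5, a log2 fold change of -1.14 ± 0.19 (limma adjusted p = 3.16e-04, exact permutation p = 0.0079, two-sided, the smallest that 5 against 5 can give).

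Notch2 stood at 3466, 2361, 3014, 2473 and 2144 normalized counts in the ATM-WT libraries A1 to A5, and at 2023, 2236, 2222, 1904 and 2082 in the ATM-KO libraries A11 to A15. Libraries A1 and A3 were the high ones, and the other ATM-WT values lay close to those of ATM-KO. Notch2, a widely expressed receptor, went from 2691 ± 539 to 2093 ± 139, a log2 fold change of -0.34 ± 0.13 (limma adjusted p = 0.042, exact permutation p = 0.024). This call was lost without library A1 (-0.25, adjusted p = 0.08), A3 (-0.30), A11 (-0.33), A12 (-0.37), A13 (-0.36), A14 (-0.31) or A15 (-0.34), and over all 20 alternatives its adjusted p ranged from 0.017 to 0.097.

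Notch1 stood at 1237, 2243, 1499.6, 2889 and 1916 normalized counts in the ATM-WT libraries A1 to A5, and at 1641, 1439, 1638, 1457 and 1352 in the ATM-KO libraries A11 to A15. The ATM-WT values spanned 2.34-fold from lowest to highest and enclosed the 5 ATM-KO values, which spanned 1.21-fold. Notch1, the receptor best known from epithelial differentiation and T cell leukaemia, changed by -0.32 ± 0.19 with a 95% interval from -0.73 to 0.10 (limma adjusted p = 0.19). Without library A1 it was called lower (-0.47, adjusted p = 0.033), and without A2 and A4 it changed by -0.02.

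Notch4 stood at 275, 802, 153, 293 and 220.4 normalized counts in the ATM-WT libraries A1 to A5, and at 66.8, 163, 262, 186 and 318 in the ATM-KO libraries A11 to A15. Library A2 stood far above the other ATM-WT libraries, and A11 was the lowest of all. Notch4, the endothelial receptor, changed by -0.73 ± 0.46 with a wide 95% interval from -1.74 to 0.27 (limma adjusted p = 0.22). Its change was -0.37 without A2 and -0.39 without A11, and it was called in neither case.

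The largest changes of the 10 genes were those of 2 ligands. Dll4, the Delta-like ligand of vessel sprouting, was nearly flat among ATM-WT tumours and higher in every ATM-KO tumour. Dll4 stood at 324, 248, 259, 275 and 278 normalized counts in the ATM-WT libraries A1 to A5, and at 2368, 2288, 1375, 1467 and 1475 in the ATM-KO libraries A11 to A15. The ATM-WT values lay within 1.31-fold of each other, and the ATM-KO tumours fell into a high group, A11 and A12, and a lower group of the other 3. The means were 277 ± 29.2 and 1795 ± 489, 6.48-fold higher in ATM-KO, with a log2 fold change of 2.66 ± 0.17 (limma adjusted p = 3.08e-07, exact permutation p = 0.0079). By fold change Dll4 stood at place 232 from the largest rise among the 16517 genes tested.

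Jag2, a Jagged ligand of stratified epithelium, went the other way. Jag2 stood at 701, 1120.4, 417, 899.7 and 1087 normalized counts in the ATM-WT libraries A1 to A5, and at 96.7, 49.3, 105, 62.7 and 70.0 in the ATM-KO libraries A11 to A15. The highest ATM-KO value was 0.25 times the lowest ATM-WT value, so the groups were far apart. The means were 845 ± 292 and 76.8 ± 23.6, with a log2 fold change of -3.41 ± 0.29 (limma adjusted p = 2.33e-06, exact permutation p = 0.0079).

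Dll1 stood at 132, 178, 242, 414 and 368 normalized counts in the ATM-WT libraries A1 to A5, and at 78.1, 65.5, 85.6, 118 and 75.4 in the ATM-KO libraries A11 to A15. The groups were apart, but A1, the lowest ATM-WT library, was close to A14, the highest ATM-KO library. Dll1, a Delta-like ligand of epithelial precursor cells, went from 267 ± 121 to 84.6 ± 20.1, a log2 fold change of -1.55 ± 0.32 (limma adjusted p = 0.0015, exact permutation p = 0.0079).

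Jag1 stood at 3469, 7776, 2783, 6296 and 4479 normalized counts in the ATM-WT libraries A1 to A5, and at 5179, 7404, 4677, 5803 and 6401 in the ATM-KO libraries A11 to A15. The ATM-KO range lay within the ATM-WT range, and the lowest values were those of ATM-WT libraries A1 and A3. Jag1, a Jagged ligand of many epithelia and of vessels, changed by 0.33 ± 0.25 with a 95% interval from -0.20 to 0.87 (limma adjusted p = 0.29). Without A2 and A4, the highest ATM-WT libraries for Jag1, it was called higher in ATM-KO (0.73, adjusted p = 0.0049, range over its alternatives 0.0049 to 0.61).

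**Figure D2:**
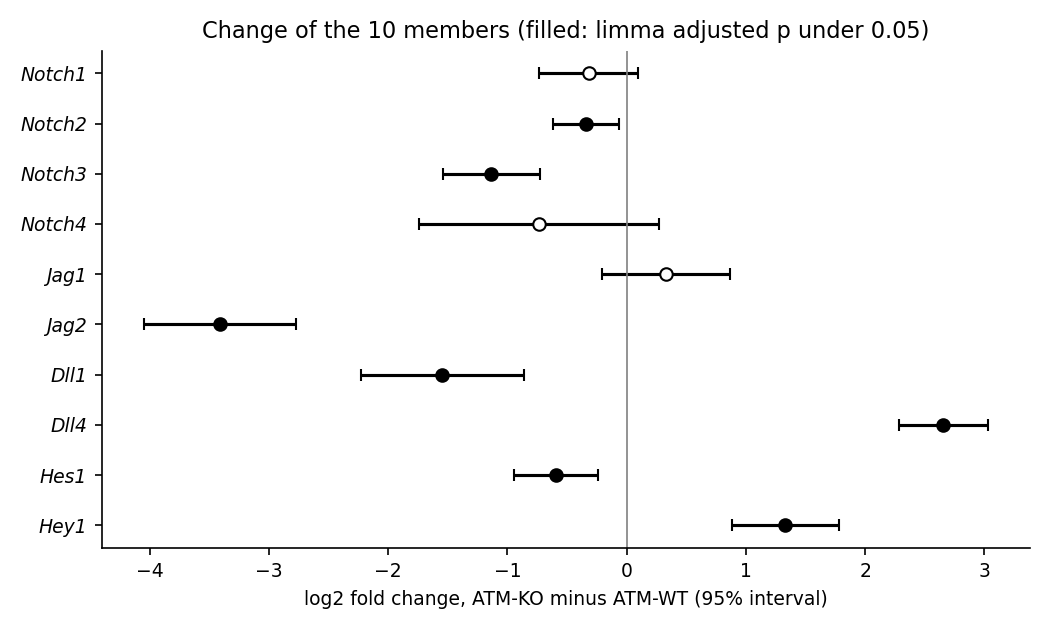
Log2 fold change of the 10 genes (ATM-KO minus ATM-WT, x axis) with 95% intervals from limma; filled points passed an adjusted p of 0.05. Dll4 (2.66) and Jag2 (-3.41) mark the ends, and the intervals of Notch1, Notch4 and Jag1 include 0.

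The start regions of the ligand genes with the largest opposite changes, and of Hey2, a further target gene that rose, are printed to show the regulatory letters beside these values. RefSeq sequences (GRCm38.p6) were matched for 8 of the 10 genes, not for Hes1 and Hey1, and for each the 250 bases before the annotated start were read. Dll4 lies on the plus strand (chr2:119325534-119325783), Jag2 on the minus strand (chr12:112929496-112929745) and Hey2 on the minus strand (chr10:30842784-30843033). Each is written 5′ to 3′ on the gene's own strand. Capitals mark the core of the RBPJ motif (TGGGAA, either strand) and the motifs CACGTG and CACGCG, which Hes and Hey repressors can bind (either strand).
Dll4: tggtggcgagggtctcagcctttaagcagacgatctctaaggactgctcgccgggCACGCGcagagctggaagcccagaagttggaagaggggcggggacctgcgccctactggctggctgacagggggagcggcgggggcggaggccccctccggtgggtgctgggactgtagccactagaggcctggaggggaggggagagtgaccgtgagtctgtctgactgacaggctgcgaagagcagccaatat
Jag2: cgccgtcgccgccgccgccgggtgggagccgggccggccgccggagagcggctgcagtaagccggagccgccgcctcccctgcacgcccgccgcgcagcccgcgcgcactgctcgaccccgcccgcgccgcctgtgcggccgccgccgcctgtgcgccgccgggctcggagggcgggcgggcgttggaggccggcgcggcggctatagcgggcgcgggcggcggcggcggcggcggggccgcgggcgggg
Hey2: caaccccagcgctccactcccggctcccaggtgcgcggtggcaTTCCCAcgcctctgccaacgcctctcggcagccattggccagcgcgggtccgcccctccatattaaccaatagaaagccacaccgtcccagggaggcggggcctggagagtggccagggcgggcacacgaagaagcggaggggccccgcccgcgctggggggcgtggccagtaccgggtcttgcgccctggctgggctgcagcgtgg
The RBPJ core was found in none of the 9 start regions of the 8 matched genes and in 21.6% of 32851 start regions of the same length. Hey2 held it at 207 bases before the start. Of the other targets and Hes relatives with a matched region, Hes7 also held it, and Nrarp and Hes6 did not. Of pathway genes with other roles that were read, Lfng, which was not called (0.19), held it at 135 and 108 bases before the start. Each matched region of Rbpj, which was called higher, held it as well. The Dll4 region held CACGCG at 195 bases before the start. This motif was also in a region each of Notch2, Jag1 and Dll1 and in 7.62% of all start regions, while CACGTG was found in 6.02%. The Jag2 region was 87.2% G and C, against 65.6% for Dll4 and a median of 52.4% over all start regions. These are letters in a window near the start and carry no measurement of binding.

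Whether the ligands changed unequally was tested on the ratio of each pair within a library, so that scaling between libraries drops out. Of 13 pairs within a role (6 of receptors, 6 of ligands, 1 of targets), 8 differed between genotypes at an adjusted exact permutation p under 0.05, among them all 6 ligand pairs and the target pair. The ligand pairs share 4 genes and are not separate findings. Of these 4 genes 3 were free of overlap on their own, as were 35.2% of all genes tested. No share was computed for pairs of other genes. The log2 ratio of Jag2 to Dll4 went from 1.53 ± 0.61 to -4.54 ± 0.65, a difference of -6.07 ± 0.40 (exact permutation p = 0.0079, adjusted p = 0.015 over the 13 pairs). The ratio was positive in 5 of 5 ATM-WT tumours and negative in 5 of 5 ATM-KO tumours. Jag1 to Dll4 differed by -2.33 ± 0.35, Jag1 to Jag2 by 3.74 ± 0.35, Jag1 to Dll1 by 1.88 ± 0.43, Dll1 to Dll4 by -4.20 ± 0.43 and Jag2 to Dll1 by -1.86 ± 0.43, each with no overlap between the groups. Jag2 and Dll1 fell and Dll4 rose, each without overlap. The p of Jag2 to Dll4 and of Dll1 to Dll4 was therefore fixed in advance and adds nothing to the single calls. For Jag1 to Jag2 and Jag1 to Dll4, the ranges of the single genes likewise left no room for overlap. Their p was thus also fixed by the single values.

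The receptor pairs were less clear. Notch2 to Notch3 differed by 0.79 ± 0.24 (exact permutation p = 0.024, adjusted p = 0.039), a call lost when any single library other than A15 was left out (differences of 0.66 without A2, 0.69 without A12, 0.72 without A11, 0.76 without A5, 0.77 without A14, 0.79 without A4, 0.86 without A1, 0.86 without A13 and 0.91 without A3). Notch1 to Notch3 differed by 0.82 ± 0.31 (exact permutation p = 0.04, adjusted p = 0.057), and by 0.99 without A15, where it passed. Notch1 to Notch2 differed by 0.02 ± 0.33, and the 3 pairs with Notch4 by 0.42 ± 0.55 (Notch1), 0.39 ± 0.59 (Notch2) and -0.40 ± 0.40 (Notch3), none of them past the threshold. The sizes of the pairs with Notch4 moved with single libraries. Notch1 to Notch4 differed by 0.12 without A2 and 0.04 without A11, Notch2 to Notch4 by -0.01 and 0.06, and Notch3 to Notch4 by -0.68 and -0.67, with -0.23 without A3. Without A15, Notch1 to Notch4 differed by 0.67 and Notch2 to Notch4 by 0.61, and without A3 the latter by 0.67.

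The targets diverged. Hes1 stood at 1817, 3056, 1711, 3033 and 2203 normalized counts in the ATM-WT libraries A1 to A5, and at 1513, 1625, 1428, 1397 and 1645 in the ATM-KO libraries A11 to A15. The ATM-KO values were tightly spaced below all ATM-WT values, of which A1 and A3 were the lowest. Hes1, a repressor that keeps cells undifferentiated, fell from 2364 ± 648 to 1521 ± 112, a log2 fold change of -0.60 ± 0.16 (limma adjusted p = 0.0095, exact permutation p = 0.0079), and by 0.32 without libraries A2 and A4 (adjusted p = 0.029, range over its alternatives 0.0025 to 0.029). Hey1 stood at 274, 229.7, 139, 189.8 and 161 normalized counts in the ATM-WT libraries A1 to A5, and at 572, 439.8, 514, 366 and 579.8 in the ATM-KO libraries A11 to A15. All ATM-KO values were above all ATM-WT values. Hey1, a repressor known from vessel development, rose from 199 ± 54.2 to 494 ± 91.0, a log2 fold change of 1.33 ± 0.21 (limma adjusted p = 2.12e-04, exact permutation p = 0.0079). The log2 ratio of Hes1 to Hey1 went from 3.56 ± 0.49 to 1.64 ± 0.25, a difference of -1.93 ± 0.25 (exact permutation p = 0.0079, adjusted p = 0.015). Hes1 fell and Hey1 rose without overlap, so the p of this ratio was fixed in advance and adds nothing to the single calls.

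To compare levels between genes, normalized counts were divided by the length in kilobases (kb) of the longest protein-coding transcript in GENCODE M21, which may not be the annotation the authors used. Per kb, Hes1 (1610.4 ± 441 normalized counts per kb, SD, n = 5) and Jag1 (884 ± 366) led in ATM-WT, followed by Notch3 (394 ± 69.8), Notch2 (256 ± 51.3), Notch1 (206 ± 68.3), Jag2 (166 ± 57.2), Hey1 (82.1 ± 22.4), Dll1 (74.5 ± 33.8), Dll4 (73.9 ± 7.80) and Notch4 (52.9 ± 39.3). Each gene's range over the 5 ATM-WT libraries overlapped that of its neighbour in this order. In ATM-KO the order of levels per kb was Jag1 (1050.0 ± 189.8), Hes1 (1036 ± 76.3), Dll4 (479 ± 131), Hey1 (204 ± 37.5), Notch2 (199 ± 13.3), Notch3 (183 ± 54.8), Notch1 (159 ± 13.6), Notch4 (30.2 ± 14.6), Dll1 (23.6 ± 5.63) and Jag2 (15.05 ± 4.62). There the ranges were apart between Hes1 and Dll4, between Dll4 and Hey1, and between Notch1 and Notch4, and overlapped between the other neighbours. Dll4 thus went from place 9 of 10 to place 3, and Jag2 from place 6 to place 10.

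As shares of the summed level per kb of the 4 ligands, Jag1 held 72.6% ± 5.37 in ATM-WT and 67.0% ± 5.65 in ATM-KO. Dll4 went from 6.91% ± 2.73 to 30.4% ± 5.67, Jag2 from 13.9% ± 2.77 to 1.01% ± 0.44 and Dll1 from 6.60% ± 2.89 to 1.56% ± 0.52. Of the 4 receptors, Notch3 held 43.2% ± 3.23 in ATM-WT and 31.5% ± 5.64 in ATM-KO, Notch2 28.6% ± 6.88 and 35.2% ± 3.75, Notch1 22.7% ± 6.64 and 28.1% ± 4.24, and Notch4 5.51% ± 3.28 and 5.14% ± 2.05. In both genotypes Jag1 was the main ligand transcript per kb, and the ligand next to it was Jag2 in ATM-WT and Dll4 in ATM-KO.

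Levels of several Notch genes varied among the ATM-WT tumours alongside cell type markers. The mean log2(value + 1) of the 12 epithelial markers was 12.19, 13.07, 11.63, 12.88 and 12.89 in A1 to A5, and that of the 8 fibroblast markers was 13.02, 11.71, 13.36, 12.20 and 12.05. Libraries A2, A4 and A5, with the highest epithelial means, held the 3 highest values of Notch1, Jag1, Jag2 and Hes1. Libraries A1 and A3, with the highest fibroblast means, held the 2 highest values of Notch2. With 5 libraries no correlation was computed, and the part of cell content in these values was not tested.

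Dll4 was set against 16 endothelial markers, of which 0 rose and 1 fell, the latter being Kdr, a receptor for vascular endothelial growth factor. This was 6.25% of the list, against 46.4% called among all genes tested. The summed level of this list ranged from 4272 to 7282 in ATM-WT and from 4265 to 7429 in ATM-KO, and its mean log2(value + 1) was 8.11 ± 0.28 in ATM-WT and 8.08 ± 0.38 in ATM-KO. Relative to that mean, Dll4 was 0.0038 ± 0.21 in ATM-WT and 2.69 ± 0.76 in ATM-KO, a difference of 2.68 ± 0.35 on the log2 scale (exact permutation p = 0.0079, adjusted p = 0.016 over 6 such values). The rise was therefore as large relative to the endothelial markers as on its own. The endothelial mean spanned only 7.59 to 8.41 over all libraries, less than the gap between the Dll4 groups. The permutation p was thus fixed by the Dll4 values and adds nothing to the single call. Libraries A11 and A12, the highest for Dll4, had the lowest endothelial means among ATM-KO tumours (7.76 and 7.59, against 8.26 to 8.41 in the other 3).

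Hey1 relative to the endothelial markers differed by 1.36 ± 0.32 (exact permutation p = 0.016, adjusted p = 0.024), and Notch4 by -0.71 ± 0.59 (adjusted exact permutation p = 0.33). The Notch4 value was -0.23 without A2 and -0.44 without A11. Of 12 pericyte and smooth muscle markers 0 rose and 3 fell (Rgs5 by -1.44, Tagln by -1.90 and Cspg4 by -0.94). These 25% are near the 24.3% called lower among all genes tested. The summed level of the 12 ranged from 12498 to 26608 in ATM-WT and from 10002 to 15502 in ATM-KO. Notch3 (-1.14) fell less than Rgs5 and Tagln and more than the others of the list. Notch3 relative to the mean of these markers differed by -0.67 ± 0.30 and did not pass (exact permutation p = 0.056, adjusted p = 0.067). Without A2 and A4 the difference was -0.34. It passed without library A3 (-0.86) or A15 (-0.78).

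Jag2 fell less than the mean of the 12 epithelial markers, though more than Krt18 among them (-1.36). Relative to that mean, Jag2 was -2.89 ± 0.13 in ATM-WT and 0.69 ± 0.62 in ATM-KO, a difference of 3.58 ± 0.28 (exact permutation p = 0.0079, adjusted p = 0.016). Among the ATM-WT tumours this value varied little, from -3.07 to -2.73. For Notch1 the difference was 6.67 ± 0.23 (adjusted exact permutation p = 0.016). The mean of these markers went from 12.53 ± 0.61 to 5.54 ± 0.35, while Notch1 changed by -0.32 ± 0.19. The Notch1 difference therefore gives the fall of the markers and does not measure a change of Notch1. That of Jag2 likewise gives how much less it fell than they did, and not a rise. The size of the marker fall left no room for overlap, so both of these p-values were fixed in advance. The median log2 fold change of the 12 epithelial markers was -6.80. Of 8 fibroblast markers 0 rose and 7 fell, with a summed level from 78846 to 356727 in ATM-WT and from 25753 to 71055 in ATM-KO. Of 9 leukocyte markers tested 3 rose and 1 fell, with a summed level from 3317 to 10423 in ATM-WT and from 7230.2 to 9568 in ATM-KO. Called were 100% of the epithelial, 87.5% of the fibroblast and 44.4% of the leukocyte markers tested, against 46.4% of all genes tested. The rise of Cd79a and the fall of Itgam were called in 20 of 20 alternatives. The rise of Cd68 was called in 11 of them and that of Cd4 in 9. The part of the fibroblast and leukocyte markers in the Notch values was not tested.

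**Figure D3:**
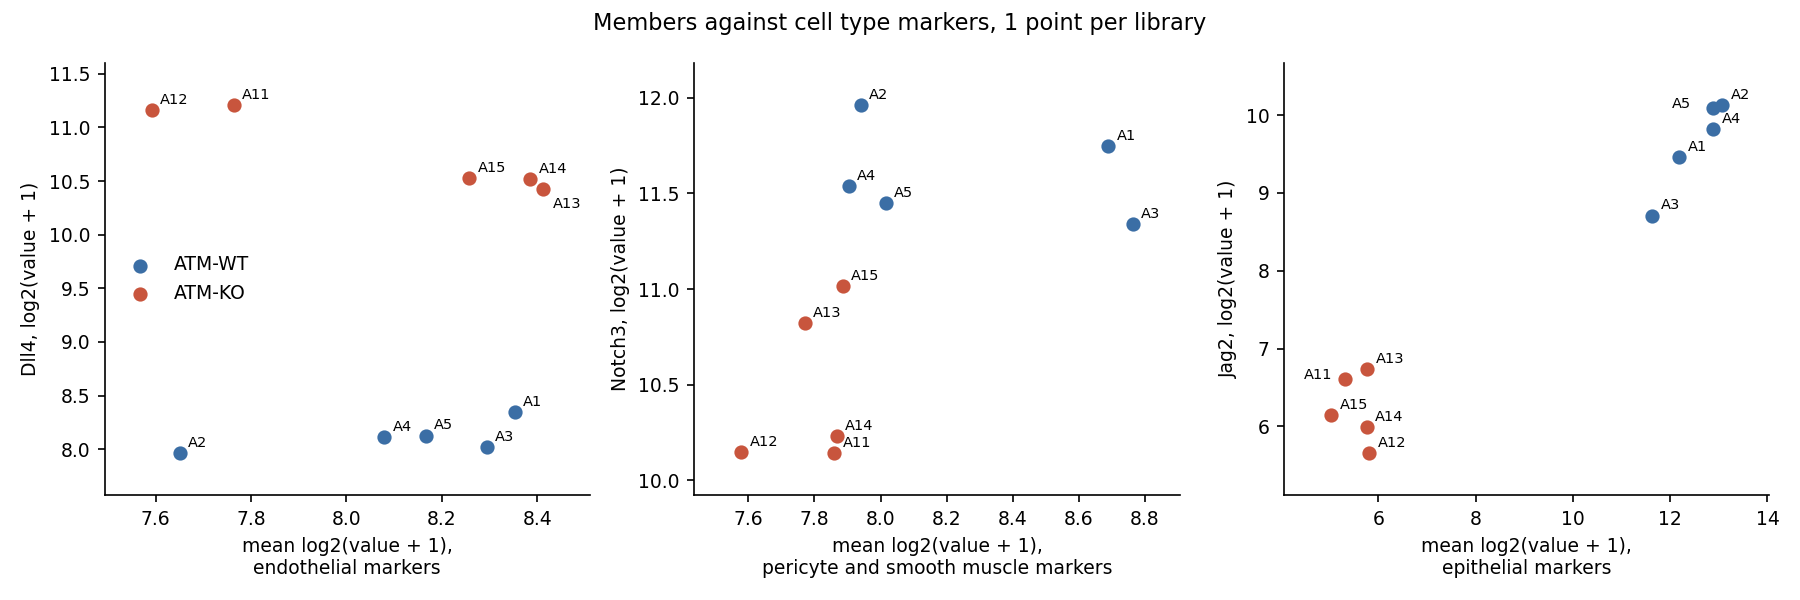
Level of Dll4, Notch3 and Jag2 (y axes, log2(value + 1)) against the mean log2(value + 1) of endothelial, pericyte and smooth muscle, and epithelial markers (x axes), 1 point per library. Dll4 separates the genotypes at like endothelial means, while for Jag2 both axes separate them.

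Other genes of the pathway were listed by role, 81 genes in 6 lists, of which 75 were tested. Of these 10 rose and 22 fell, 42.7% together, and the median log2 fold change was -0.12. That share is close to the 46.4% called among all genes tested. By list, 83.3% of the other ligands, 50% of the glycosyltransferases and 20% of the receptor proteases were called. The shares were 36.4% for nuclear cofactors, 40.9% for endocytosis and turnover and 60% for other targets. In the list of other ligands and ligand-like proteins, 1 of 6 tested members rose and 4 fell, with a median of -2.19. The falling members with the smallest p were Cntn1 (from 42.7 ± 27.5 to 0.58 ± 0.54, -4.53 ± 0.66), a neural adhesion protein, Mfap2 (from 410.3 ± 194 to 78.1 ± 25.6, -2.34 ± 0.35), a microfibril protein, and Ccn3 (from 930.2 ± 789.7 to 63.3 ± 46.3, -3.66 ± 0.57), a secreted matrix protein. Cntn1 was listed at 0 in 2 ATM-KO libraries, and its change was -2.85 with a pseudocount of 5. Dlk2, a Delta-like protein without the receptor-activating domain, was the member called higher (39.8 ± 32.7 to 83.8 ± 16.4, 1.52 ± 0.58, limma adjusted p = 0.047), and was named after its value was seen. That call held in 10 of 20 alternatives (adjusted p from 0.009 to 0.11) and was lost without library A2, A5, A11, A12, A13, A14 or A15, with log2 fold changes from 1.07 to 2.12 over all alternatives.

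Fringe and other glycosyltransferases add sugars to the receptors and tune which ligands they answer. Of 10 tested, 1 rose and 4 fell, with a median of -0.10. Of the fringe genes, Rfng fell (from 773 ± 224 to 345 ± 41.3, -1.12 ± 0.19). Lfng (0.19 ± 0.18, limma adjusted p = 0.42) and Mfng (0.02 ± 0.24, adjusted p = 0.96), named after their values were seen, were not called. The xylosyltransferase genes parted, with Gxylt1 higher (from 943 ± 104 to 1568 ± 135, 0.74 ± 0.10) and Gxylt2 lower (from 2856 ± 1399 to 942 ± 15.6, -1.46 ± 0.26). Of 10 proteases that cut the receptors, 2 rose and 0 fell (all genes tested: 22.1% and 24.3%), with a median of 0.26. These were Furin (from 2559.9 ± 488 to 3482 ± 213, 0.46 ± 0.12), which cleaves the receptor before it reaches the surface, and Aph1a (from 2406 ± 227 to 3032 ± 335, 0.33 ± 0.10), a gamma-secretase subunit. The Aph1a call was lost without library A12 (0.30) or A13 (0.31), after quantile normalization (0.23), with array weights (0.28) and without A2 and A4 (0.24).

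Of the nuclear cofactors 3 of 22 rose and 5 fell, with a median of -0.13. Of the Mastermind coactivator genes, Maml2 (from 723 ± 95.7 to 232 ± 21.4, -1.63 ± 0.13) and Maml3 (from 424 ± 42.0 to 167 ± 19.2, -1.34 ± 0.15) fell (limma adjusted p = 1.46e-06 and 1.40e-05), and Maml1 changed by -0.16 ± 0.10 (adjusted p = 0.2). The corepressor gene Tle4 fell (from 462 ± 81.5 to 245 ± 21.1, -0.90 ± 0.16). Rbpj, the DNA-binding partner of all 4 receptors, rose from 2067 ± 356 to 2894 ± 168 (0.50 ± 0.12, adjusted p = 0.0035). Rbpj and Maml1 were named after their values were seen. Of genes for ligand endocytosis and receptor turnover 2 of 22 rose and 7 fell, with a median of -0.21. The ubiquitin ligase genes Neurl1b (from 881 ± 225 to 269 ± 34.8, -1.67 ± 0.20), which acts on ligands, Dtx3 (from 1406 ± 287 to 686 ± 39.9, -1.01 ± 0.14), and Itch (from 1681 ± 127 to 1211 ± 46.5, -0.47 ± 0.08), which acts on receptors, had the smallest adjusted p among those that fell.

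In the list of other targets and Hes relatives, 5 were tested, of which 1 rose and 2 fell, with a median of 0.15. Hey2, a close relative of Hey1, stood at 28.0, 29.4, 33.7, 0 and 18.6 normalized counts in A1 to A5 and at 104, 93.4, 127, 82.1 and 118 in A11 to A15. All ATM-KO values were above all ATM-WT values, and A4 was listed at 0. Its log2 fold change was 2.87 ± 0.83 (limma adjusted p = 0.013), and 1.91 without A4. The third Hey gene, Heyl, fell from 109.8 ± 44.5 to 50.9 ± 10.4 (-1.03 ± 0.30, adjusted p = 0.014), a call lost after quantile normalization (-0.47, adjusted p = 0.23, range over its alternatives 0.0092 to 0.23). Hes6, a Hes relative that counters Hes1, fell from 902 ± 87.0 to 611 ± 73.5 (-0.56 ± 0.11). Nrarp, a feedback inhibitor induced by Notch, ranged from 492 to 1619 in ATM-WT and from 1477 to 1866 in ATM-KO and did not pass (0.70 ± 0.30, adjusted p = 0.07).

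**Figure D4:**
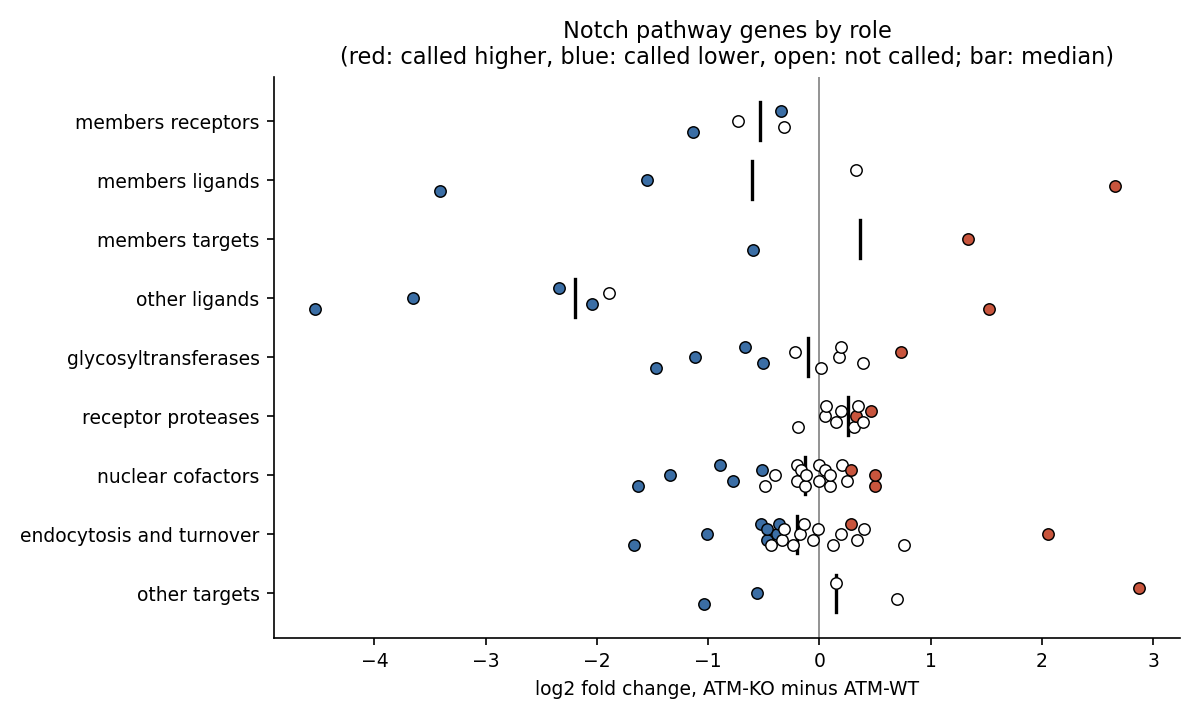
Log2 fold change (x axis, ATM-KO minus ATM-WT) of the tested Notch pathway genes by role, 1 point per gene, with a bar at the median of each row; red and blue points were called higher and lower by limma. Called genes lie on both sides of 0 in most rows, and the protease row, with 2 genes called, has none called lower.

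For each of the 10 genes, the most like patterns were sought among 12629 other named genes whose mean reached 50, as the root mean square distance of log2(value + 1) profiles over the 10 libraries, each centred on its mean. Nearest to Dll4 were Kyat3 (0.26) and Ercc6l (0.31), and nearest to Hey1 Cmtr1 (0.20) and Dlgap5 (0.23). Kyat3 went from 82.0 ± 15.5 to 541 ± 52.6 normalized counts. Nearest to Jag2 were Mst1r (0.30) and Nipsnap1 (0.31), and nearest to Dll1 Casq2 (0.31) and Gnal (0.37). Mst1r, a receptor kinase gene, went from 289 ± 80.2 to 25.1 ± 9.82. The receptors lay nearest to Arv1 (0.07) and Sat1 (0.12) for Notch1, Plbd2 (0.08) and Zfta (0.10) for Notch2, Rab4a (0.19) and Arhgef10l (0.20) for Notch3 and Tom1l1 (0.47) and Adm (0.48) for Notch4. Jag1 lay nearest to Prpf4b (0.12) and Snhg17 (0.16), and Hes1 to Cdc42ep4 (0.08) and Zfand5 (0.08). These distances describe the same 10 libraries that gave the fold changes, and genes with a small spread lie close to many others.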

How the data were processed

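Tumour RNA of 5 ATM-WT and 5 ATM-KO samples was sequenced by a company that also extracted it, per the labels' protocols. The authors deposited 1 table of normalized counts per gene symbol, a signal that is never negative and not whole reads. STAR, Salmon and DESeq2 are named in the submitters' processing notes, their roles and versions, like build and annotation, being not given in the sources used here. The columns carry the genotype and a library number found in no sample label, so they were assigned to groups only. No 2 libraries held identical values. Low values (20 reads or fewer) were whole multiples of 1 read's worth, within 0.05, in just 59.2% to 69.2% of cases, so no count model was run.

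Genes with a mean of at least 10 entered limma 3.58.1 (R 4.3.3, eBayes with trend) as log2(value + 1), adjusted over all genes by Benjamini-Hochberg, threshold 0.05. The step was tested on simulated data. Within-library ratios and marker-relative values were compared with exact two-sided permutation tests (scipy 1.17.1). Genes named are the 10 members, up to 3 called genes per pathway list with the smallest adjusted p, the 2 nearest patterns per member, and a few others described beside them. Members, lists and tests were chosen with earlier results of these data known. Alternatives covered pseudocount, filter, scaling, eBayes settings, array weights and left-out libraries.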

Additional observations from a re-analysis of the deposited data

Results flagged for a closer look

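Of 92 groups of 5 libraries checked for a value far from the others, 6 held one. Chance gives about 1 in 20. Notch4 in ATM-WT library A2 (802) stood above the next value of 293 normalized counts. The log2 ratio of Notch3 to Notch4 in ATM-KO library A11 (4.06), where Notch4 was lowest, was above the next of 2.79. Ccn3 in ATM-KO library A11 (143) was above 58.1 in the next library. Neurl1b in ATM-WT library A3 (495) was below 910.4. Itch was high in ATM-WT library A1 (1907, next 1631) and low in ATM-KO library A13 (1131, next 1209.5). What lies behind these values was not tested.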

How the results depend on the processing

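Over 20 alternatives 6 to 8 of the 10 genes were called, and Dll4, Jag2, Dll1, Notch3, Notch4, Hes1 and Hey1 kept their direction and side of the threshold in each. Notch2 lost its call with no filter on low values (-0.34), upper-quartile scaling (-0.30), eBayes without trend (-0.34) and array weights (-0.27), and ranged from -0.42 to -0.25 with 1 library left out, as Notch1 did from -0.47 to -0.16. Without A2 and A4, Jag1 was 0.73. Quantile normalization moved the median of all genes from 0.00467 to 0.15 and gave 4514 genes higher and 3319 lower, against 3649 and 4017. With 1 library left out, Notch1 over Notch2 ranged from -0.22 to 0.21, Notch2 over Notch4 from -0.01 to 0.67 (-0.012 without A2), Notch1 over Notch4 from 0.04 to 0.67, Notch3 over Notch4 from -0.68 to -0.23, Notch2 over Notch3 from 0.66 to 0.93, Notch1 over Notch3 from 0.63 to 0.99, Notch4 minus endothelial markers from -0.99 to -0.23, and Notch3 minus pericyte and smooth muscle markers from -0.86 to -0.50. Without A2 and A4 (3 against 5 libraries) no call of these exact permutation tests remained. The smallest adjusted permutation p was then 0.066 for ratios and 0.054 for values relative to markers. Groups fully apart already gave the smallest exact p that 3 against 5 can give, so their lost calls follow from the number of libraries. The differences were then 3.92 for Jag1 over Jag2, 2.18 for Jag1 over Dll1, -1.88 for Jag1 over Dll4, -1.74 for Jag2 over Dll1, -5.79 for Jag2 over Dll4, -4.05 for Dll1 over Dll4, -1.73 for Hes1 over Hey1, 0.61 for Notch2 over Notch3 and -0.18 for Notch2 over Notch4, whose sign turned. For values relative to markers they were 2.79 for Dll4, 1.59 for Hey1, 6.67 for Notch1, 3.51 for Jag2, -0.34 for Notch3 and -0.06 for Notch4, the last 2 not called before either. Where not stated, the cause was not tested. No paired analysis was possible because the columns carry no sample number of the labels. At a given normalized count, the shallow library A2 rests on the fewest reads and has the largest counting error. Whether this shaped any value named here was not tested.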
